A study of Mus musculus with 31 samples.

Results

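The 16 arrays compared here are the 8 with the highest and the 8 with the lowest Ppp1r1b among the 31 of the series, whatever the genotype of the mouse. They were selected on a measured value, the submitters' processed log2 value of the brightest of the 3 Ppp1r1b probes (ILMN_2954824). The 8 high and 8 low arrays are thus no treatment groups, and Ppp1r1b itself was left out of every test of high against low arrays. The arrays are single-colour Illumina bead arrays of total RNA from the bed nucleus of the stria terminalis and preoptic area of MF1 mice aged 152 days. The mice come from the Sex Chromosome Trisomy model of Klinefelter syndrome, in which the testis-determining gene Sry is carried apart from the Y chromosome. There were 8 XX females, which lack Sry and have ovaries, and 7 XX males, 8 XXY males and 8 XY males, all with Sry. The labels call the arrays biological replicates without naming animals, so the p-values reflect only how far these samples spread.

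Ppp1r1b encodes DARPP-32, a phosphoprotein that turns dopamine signals into inhibition of protein phosphatase 1. It is most abundant in the GABAergic projection neurons of the striatum, a region that borders the bed nucleus. Projection neurons of the direct pathway carry the dopamine D1 receptor, encoded by Drd1, and those of the indirect pathway carry the D2 receptor, encoded by Drd2. Both types share a set of genes for cyclic nucleotide signalling and for their identity. The comparison asks which genes go with Ppp1r1b from piece to piece. In such bulk tissue, fewer cells of a type and less RNA per cell cannot be told apart.

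Ppp1r1b was spread unevenly over the arrays. In log2 units of the submitters' values, the high arrays ran from 10.41 on XXY male 3 to 12.91 on XY male 2, with a median of 11.45. The low arrays ran from 9.24 on XY male 6 to 9.70 on XX male 2, with a median of 9.59, and the 15 arrays in between from 9.74 to 10.34. The largest step in the ranking lay at its top, where XY male 2 stood 1.05 above XX male 8, the next array. The steps at the selection limits were small, 0.07 between ranks 8 and 9 and 0.04 between ranks 23 and 24. The highest array thus lay above the rest by the largest step, while the limit of the low group fell within a continuous run of values. The other Ppp1r1b probes were also highest on XY male 2. Over the 31 arrays, however, their Spearman correlations with the ranking probe were 0.665 and 0.265. On both, the low arrays lay within the range of the intermediate arrays, so the low group rests on the brightest probe alone.

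**Figure D1:**
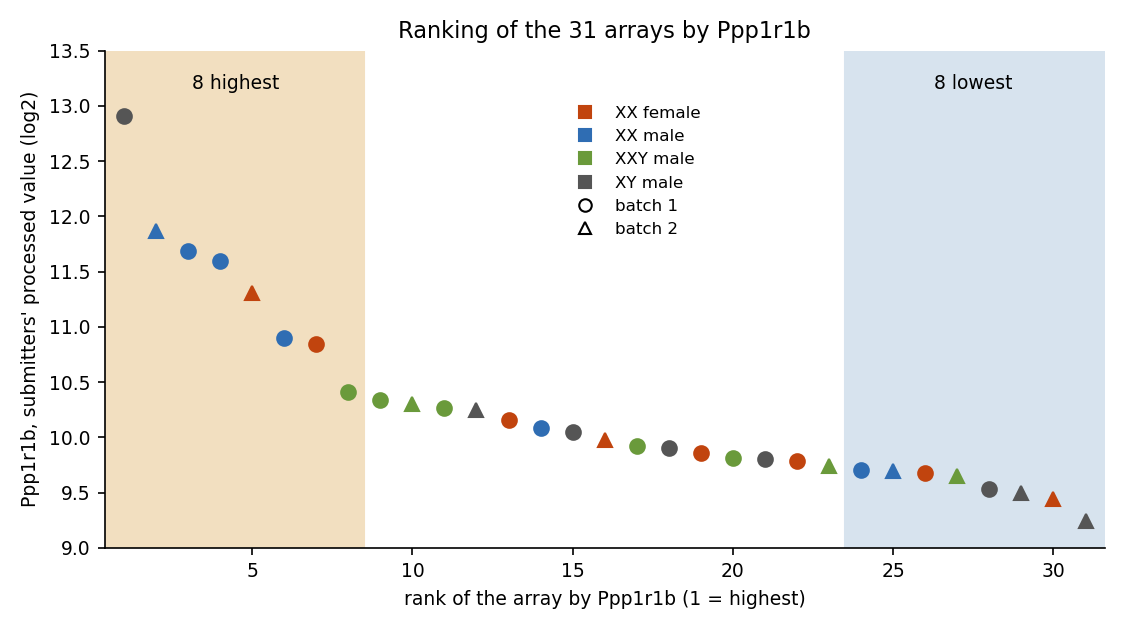
Submitters' processed log2 value of Ppp1r1b (vertical axis) against the rank of each of the 31 arrays (horizontal axis), coloured by genotype group, with circles for batch 1 and triangles for batch 2. Shading marks the 8 highest and 8 lowest arrays. XY male 2, at 12.91, stands 1.05 above the next array, and the other arrays run from 11.86 down to 9.24 in steps of unequal size.

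The genotype groups were mixed in both sets of arrays. The 8 high arrays held 2 XX females, 4 XX males, 1 XXY male and 1 XY male, and the 8 low arrays held 2 XX females, 2 XX males, 1 XXY male and 3 XY males. A two-sided Fisher's exact test found no uneven split of any of the 4 genotype groups between high and low (p = 0.569 to 1, each adjusted p = 1). With 8 arrays a side, it could miss all but large imbalances. Of the XXY males, 6 of 8 lay among the 15 arrays in between. By the descriptions, 6 high and 3 low arrays belonged to batch 1, and 2 high and 5 low arrays to batch 2 (two-sided Fisher's exact test, p = 0.315), so batch was a term in the fit. Xist, the transcript that silences an X chromosome in cis, differed by 1.02 on the log2 scale (adjusted p = 0.811), and by 0.27 with genotype as a term.

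One of the high arrays stood apart from the others in a way other than Ppp1r1b. XX male 6, at rank 3, is described as batch 1, but its score of 33.4 on the component that separates the batches lay among those of batch 2, whose lowest was 22.8. Every other array of replicate number 6 is described as batch 2. No further array of batch 1 exceeded -12.7. With the batch effect removed by its label, XX male 6 was the highest of the 31 arrays at 2088 of 11711 genes and the lowest at 1980. Whether the batch label or the sample accounts for these counts was not tested. All batch-adjusted signals of XX male 6 given below depend on that label. XY male 2 was the highest at 523 genes and the lowest at 558, numbers that an array outside the high group, XY male 5, exceeded with 607 and 615.

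Drd1 set the 8 high arrays apart from all the others, but its median was no higher in the intermediate than in the low arrays. Its signal, in log2 units with the fitted batch effect removed, was 8.25 at the lowest, 8.73 at the median and 10.76 at the highest of the 8 high arrays. In the 8 low arrays it was 6.68, 7.46 and 7.83, and in the 15 between 6.93, 7.32 and 8.07. Every high array lay above all the others, and XY male 2 stood well above the next, XX male 8 at 9.01. The difference was 1.50 (SE 0.315, 95% interval 0.83 to 2.17), or 2.83-fold. By a two-sided permutation test over all arrangements of the 16 arrays, it had p = 0.000155, the smallest these arrangements can give (adjusted p = 0.000466 over 3 tests). The values had been batch-adjusted by the fit that holds the high and low groups. They were exchanged across batches of unequal make-up, so the p-values of this test are approximate. In the limma fit across all 11711 genes it had an adjusted p of 0.237, and its SD within the high arrays was 0.807 (n = 8). Without XY male 2 that SD was 0.305, the difference was 1.29 (SE 0.169) and Drd1 passed the limma threshold of 0.05 (adjusted p = 0.0166). The difference was 1.54 in batch 1 and 1.45 in batch 2, and 1.50 without XX male 6.

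Drd2 did not separate the arrays. Its signal ran from 7.29 through a median of 7.72 to 8.77 in the high arrays, from 7.23 through 7.57 to 7.91 in the low arrays, and from 6.87 through 7.34 to 7.68 in those between. Only XX male 6, at 8.77, and XY male 2, at 8.63, lay above the range of the low arrays. The difference was 0.27 (95% interval -0.18 to 0.73, adjusted p = 0.867 by limma, and p = 0.249 by the permutation test used for Drd1). It was 0.19 without XY male 2 and 0.04 without both of these arrays. Other settings gave larger values, 0.40 with XX male 6 counted in batch 2, 0.42 with no batch term and 0.39 in the submitters' values. Drd2 passed the threshold in none of these. Set against Drd1 within each array, Drd2 differed less between high and low arrays by 1.23 (same permutation test, two-sided, approximate p = 0.000311, adjusted p = 0.000466). Without XY male 2 this gap was 1.07 with the same p. Of the striatal markers, Drd1 thus set the arrays of high Ppp1r1b apart, while Drd2 gave no separation beyond its spread. The arrays are therefore called here by their Ppp1r1b level and not by a tissue.

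The promoters of Drd1, which separated the arrays, and of Drd2, which did not, are shown with that of Tmem59l, which was lower in the high arrays without overlap. The sequences are from RefSeq (GRCm38.p6), 5′ to 3′ on the strand of the gene, from 250 bases before to 50 after the listed start. Capitals mark the single match found in them to a searched motif, the cyclic AMP element TGACGTCA, which starts at position -22 from the Tmem59l start.
Drd1, chr13:54055609-54055908, minus strand: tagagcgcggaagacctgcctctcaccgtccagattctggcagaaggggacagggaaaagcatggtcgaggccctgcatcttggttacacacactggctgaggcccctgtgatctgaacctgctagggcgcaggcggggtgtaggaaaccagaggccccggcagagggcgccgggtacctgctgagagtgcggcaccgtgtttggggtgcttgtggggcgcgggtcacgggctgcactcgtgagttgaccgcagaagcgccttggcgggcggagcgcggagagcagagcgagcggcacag
Drd2, chr9:49340153-49340452, plus strand: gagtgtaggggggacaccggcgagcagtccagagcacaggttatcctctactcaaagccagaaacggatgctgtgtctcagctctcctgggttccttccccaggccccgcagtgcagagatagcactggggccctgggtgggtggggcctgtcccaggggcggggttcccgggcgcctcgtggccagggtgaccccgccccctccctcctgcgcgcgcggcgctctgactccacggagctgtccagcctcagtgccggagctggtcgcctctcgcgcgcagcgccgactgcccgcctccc
Tmem59l, chr8:70487299-70487598, minus strand: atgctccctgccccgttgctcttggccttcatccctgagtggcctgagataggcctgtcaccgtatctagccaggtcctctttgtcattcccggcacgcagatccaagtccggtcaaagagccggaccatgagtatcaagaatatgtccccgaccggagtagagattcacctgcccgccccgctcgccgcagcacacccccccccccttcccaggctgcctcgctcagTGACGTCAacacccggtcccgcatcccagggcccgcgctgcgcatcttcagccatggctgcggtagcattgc
Drd1 has 2 listed promoters, of which 1 is shown. Searches covered 4 motifs on both strands in the listed promoters of 11 named genes, and no matches overlapped. The cyclic AMP element lies in 1.79% of all 32851 listed promoters and in those of 1 of the 11 genes, Tmem59l. The EGR motif GCGNGGGCG lies in 5.55% and in 1 of the 11, Bcar1, and TATAAA in 13.6% and in 1 of the 11, Bcl11b. The MEF2 motif lies in 0.557% and in 0 of the 11. These percentages are of promoters and the counts are of genes, some with several listed promoters (9 for Arpp21), so they are not like measures. Ppp1r1b, Scx and Gpr17 are not in the table used here.

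Across all genes, none passed the threshold in the fit of the 16 arrays. By count, 0% of the 11711 genes and unnamed probes tested had an adjusted p under 0.05 by limma with batch as a term, and the smallest adjusted p was 0.121. With limma's robust fit the count was also 0. At an unadjusted p under 0.05 there were 834, of which 483 (4.12%) were higher and 351 (3.00%) lower in the high arrays. Without XY male 2, 2 genes (0.0171%) passed, Drd1 and Icam5. With all 31 arrays fitted in 3 rank groups, 11 genes (0.0939%) passed, all higher in the high arrays: Arpp21, Icam5, Drd1, Gng7, Bcl11b, Itpka, Crym, Fcho1, Egr4, Grasp and the unnamed probe ILMN_2726397. High and low arrays did not overlap at 12 genes that were higher (0.102%) and 10 that were lower (0.0854%).

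The high minus low difference was compared between the batches by an interaction term in limma, which called 0 genes (smallest adjusted p = 0.194, and 687 genes at an unadjusted p under 0.05).

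Of the 12 genes of smallest p, 8 were higher and 4 lower in the high arrays. Icam5, the adhesion molecule telencephalin of forebrain neurons, ranged over 7.57, 8.15 and 8.68 (lowest, median and highest) in the high arrays and over 7.13, 7.21 and 7.51 in the low arrays, with no overlap. It differed by 0.89 (SE 0.141, adjusted p = 0.121), by 0.89 and 0.88 within batches 1 and 2, and by 0.83 without XY male 2, where it passed the threshold (adjusted p = 0.0430). Bcl11b, which encodes CTIP2, a transcription factor needed for the maturation of striatal projection neurons, differed by 1.22 (adjusted p = 0.192), and by 1.20 and 1.25 within the batches. Egr4, an immediate early transcription factor, differed by 0.96 (adjusted p = 0.168), Itpka, an inositol trisphosphate kinase of dendritic spines, by 1.02 (adjusted p = 0.298; 0.78 and 1.35 within batches 1 and 2), Fcho1, of clathrin-coated pit assembly, by 0.41 (adjusted p = 0.168), and Arhgap32, a GTPase-activating protein, by 0.50 (adjusted p = 0.298). The genes lower in the high arrays were nearer together in size. Gpr17, a receptor of oligodendrocyte precursors, differed by -0.46, Tmem59l by -0.43, the adaptor protein Bcar1 by -0.37 and Scx, a tendon transcription factor, by -0.36 (adjusted p = 0.168 to 0.171). These 4, chosen for small p in this same comparison, did not overlap between high and low arrays, where 0.0854% of all genes were lower without overlap. Their differences were -0.44, -0.43, -0.37 and -0.37 without XY male 2. Within batch 1 Tmem59l differed by -0.32, Bcar1 by -0.24 and Scx by -0.25, and within batch 2 by -0.58, -0.55 and -0.53.

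**Figure D2:**
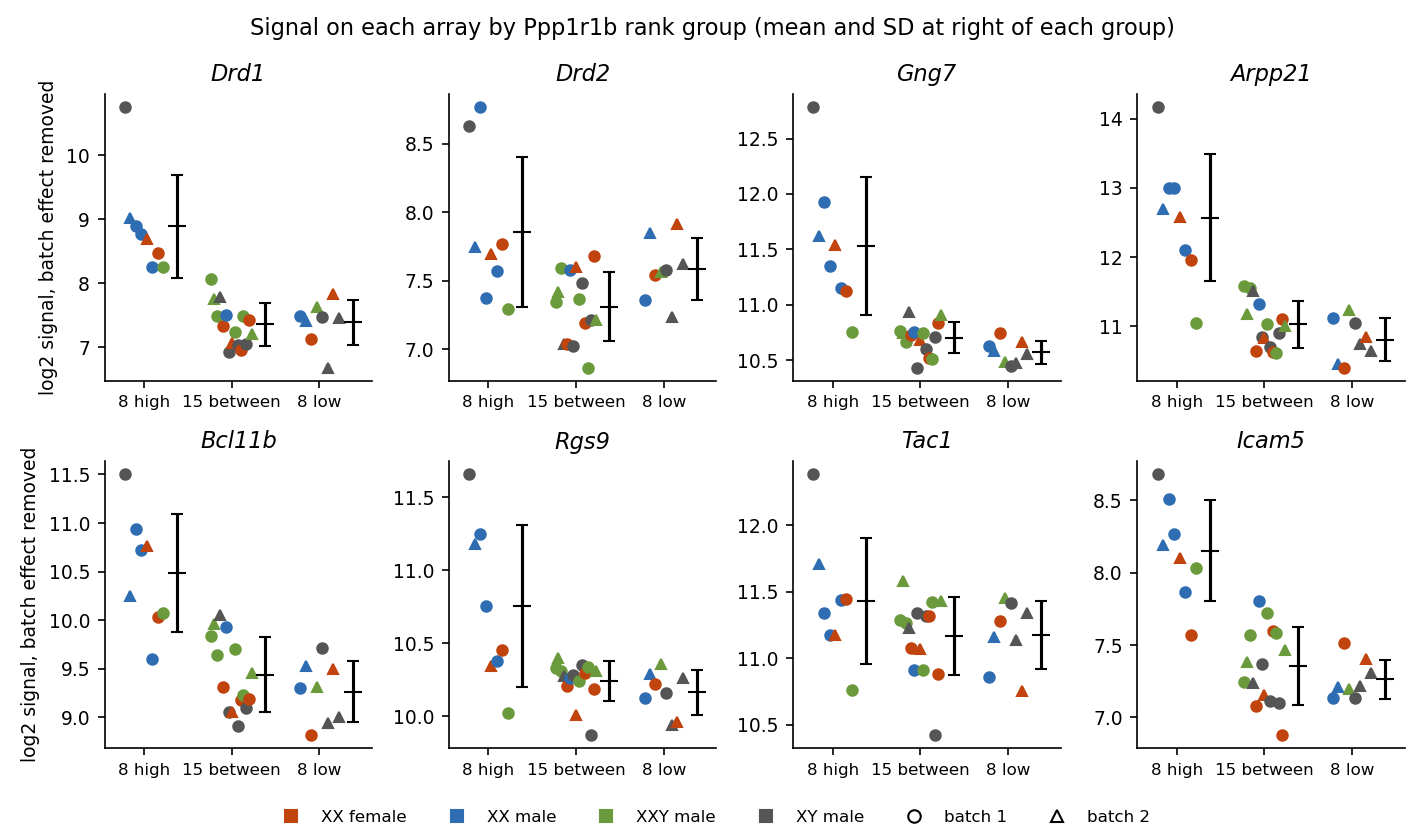
Log2 signal with the fitted batch effect removed (vertical axes) of 8 genes on each array, for the 8 high, 15 intermediate and 8 low arrays by Ppp1r1b (horizontal axes). Colour gives the genotype group, symbol the batch, and bars the mean and SD of each set; XY male 2 is the topmost point of the high set in 7 panels, and in the Drd1, Gng7 and Icam5 panels the high and low sets do not overlap.

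Of the genes shared by both kinds of striatal projection neuron, 23 of 31 besides Ppp1r1b were measured. Differences were above 0 for 21 of the 23, with a median of 0.33, where over all 11711 genes 5620 were above 0 and the median was -0.01. None passed the threshold (0% of all genes did), and 11 of the 23 were higher at an unadjusted p under 0.05, set beside 4.12% of all genes. Without XY male 2 the median was 0.25. It was 0.31 without XX male 6, 0.23 within batch 1 and 0.48 within batch 2. The list mean per array, the mean deviation of its members from their level over all arrays, was 1.10 on XY male 2 and at most 0.43 on the other high arrays, with a median of 0.31 over all 8. On the low arrays it ran from -0.27 to -0.06, and XXY male 3, at rank 8, had the lowest of the high arrays, -0.08. The 2 sets thus overlapped only through XXY male 3.

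Arpp21, a cyclic AMP-regulated phosphoprotein of the same neurons, ran from 11.06 through a median of 12.64 to 14.18 in the high arrays and from 10.40 through 10.79 to 11.23 in the low arrays. It differed by 1.76 (SE 0.345, 3.39-fold, adjusted p = 0.168) and overlapped at XXY male 3 alone. A second Arpp21 probe gave -0.0067, so the value rests on 1 of 2 probes. Within batches 1 and 2 the first probe differed by 1.69 and 1.86. Gng7, the G protein gamma subunit that couples the D1 receptor to adenylyl cyclase in striatal neurons, ran from 10.75 through 11.45 to 12.79 in the high arrays and from 10.45 through 10.57 to 10.74 in the low arrays. Its groups did not overlap, though the lowest high array, XXY male 3, lay just above the highest low array, and it differed by 0.96 (SE 0.228, adjusted p = 0.383), with 0.91 and 1.03 within the batches. Scn4b, a sodium channel beta subunit, differed by 1.16, with 0.77 and 1.71 within batches 1 and 2, Rarb, a retinoic acid receptor of striatal development, by 0.87, Actn2, an actin-binding protein of spines, by 0.82, and Meis2, a homeodomain factor of striatal and other ganglionic neurons, by 0.80 (adjusted p = 0.383 to 0.574).

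Among signalling enzymes of the shared list, Rgs9, which speeds the shut-off of dopamine receptor G proteins, ran from 10.02 through 10.60 to 11.66 in the high arrays and from 9.94 through 10.19 to 10.36 in the low arrays, a difference of 0.59. The phosphodiesterases Pde10a and Pde1b, which break down cyclic nucleotides, differed by 0.36 and 0.33, and Pde7b by -0.06. Hpca, a calcium sensor, differed by 0.48 and the kinase Dclk3 by 0.39. Of the smaller differences, Gnal, the G protein alpha subunit of D1 signalling in the striatum, differed by 0.22 and was detected on 8 high and 3 low arrays. Spata2l differed by 0.23, Tmem158 by 0.19, Syndig1l by 0.19, the transcription factor Foxp1 by 0.15, the phosphatase Ptpn5 by 0.12, Cnr1, the cannabinoid receptor, by 0.09 (0.29 without XX male 6), the channel partner Kcnip2 by 0.09, Rxrg by 0.09 and Foxo1 by -0.0048. For these 16 genes the adjusted p lay between 0.574 and 0.995, and their high and low arrays overlapped. A second Cnr1 probe, detected on 28 arrays, gave -0.19.

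The direct pathway list was uneven. Of 7 measured members of 10, 5 differed by more than 0, with a median of 0.20, and 0.08 without XY male 2. Drd1 and Slc35d3, a transporter-like protein that acts in D1 receptor trafficking, were the 2 without overlap, where 0.102% of all genes were higher without overlap. Slc35d3 ran from 6.11 through 6.59 to 7.93 in the high arrays and from 5.63 through 5.83 to 6.09 in the low arrays, a difference of 0.86 (adjusted p = 0.504), and was detected on 6 of 8 low arrays. On XY male 5, an array in between, Slc35d3 was at 6.76. Tac1, the precursor of substance P, overlapped widely, from 10.76 through 11.39 to 12.38 in the high and from 10.76 through 11.22 to 11.45 in the low arrays. It differed by 0.25 and Pdyn, the dynorphin precursor, by 0.20 (adjusted p = 0.862 and 0.930), and both were highest of the 31 arrays on XY male 2. Isl1, a transcription factor of direct pathway neurons, differed by 0.06, Sfxn1 by -0.09 and Ebf1, a transcription factor of the same lineage, by -0.40 (adjusted p = 0.707). Second probes gave -0.08 for Pdyn and 0.04 for Sfxn1, opposite in sign to the values above. Tac1, Pdyn and Isl1 are also made by neurons of the bed nucleus and preoptic area.

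Of 8 genes listed for the indirect pathway, 4 were measured, and 3 differed by more than 0, with a median of 0.29 and of 0.18 without XY male 2. Sp9, a transcription factor of indirect pathway neurons, differed by 0.55, the orphan receptor Gpr6 by 0.31, Drd2 by 0.27 and Ttc12, a neighbour of Drd2 in the genome, by -0.20 (adjusted p = 0.635 to 0.867). Adora2a and Penk, the best-known markers of the indirect pathway, are not analysed here. The list mean per array was 0.88 on XY male 2 and at most 0.20 on the other high arrays, while the low arrays ran from -0.23 to 0.15. The indirect pathway list therefore separated XY male 2 but not the other high arrays from the low ones.

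**Figure D3:**
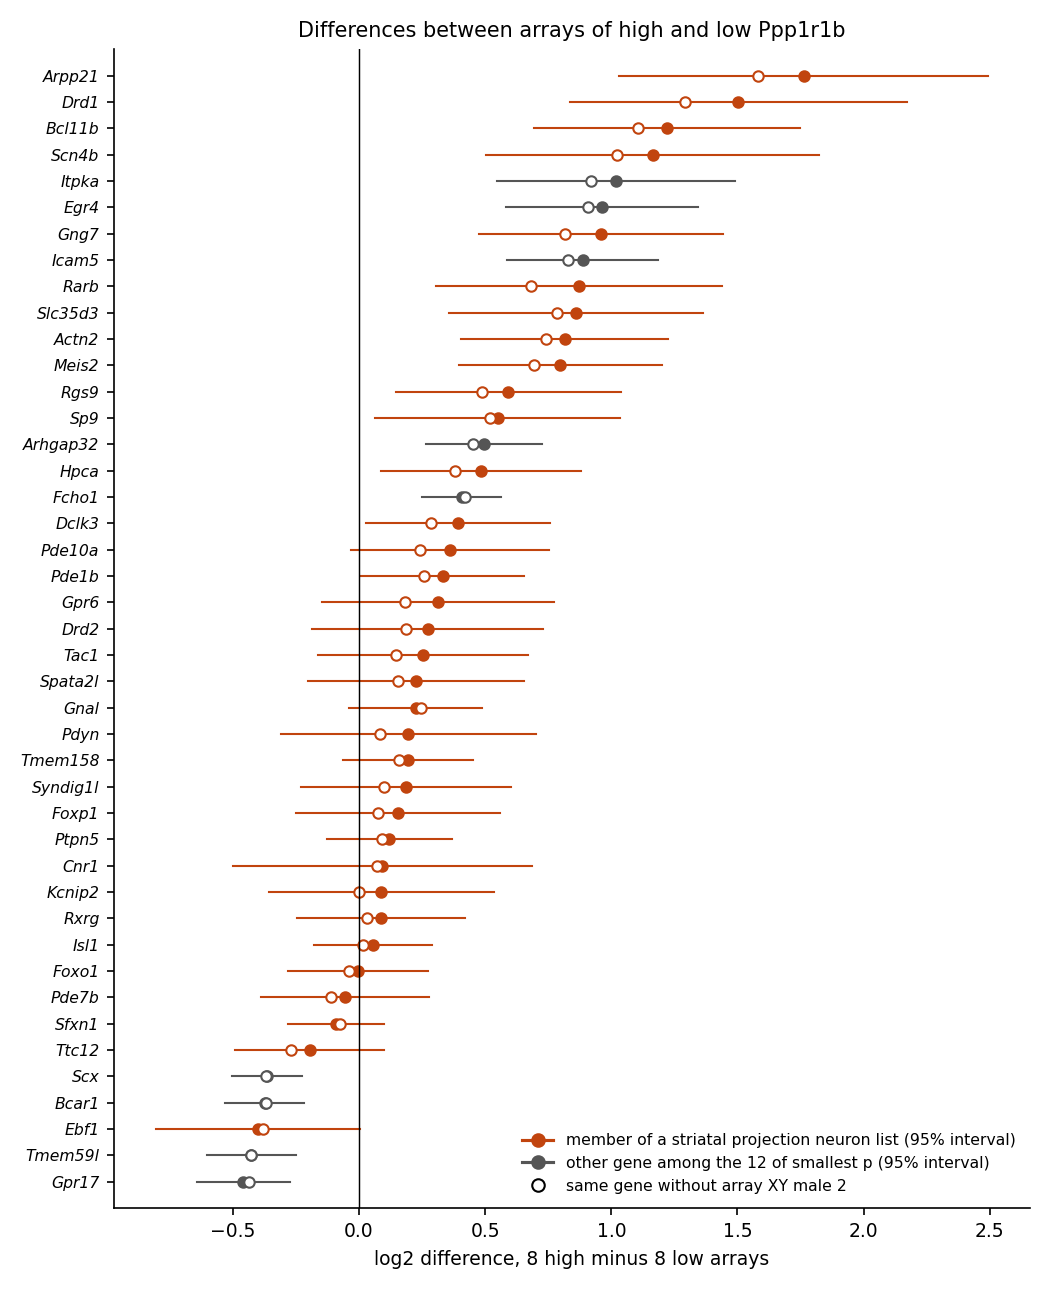
Log2 difference, 8 high minus 8 low arrays (horizontal axis), with 95% intervals, of the measured members of the striatal projection neuron lists (orange) and the other genes among the 12 of smallest p (grey). Open circles give the same difference without XY male 2; Arpp21, at 1.76, and Drd1, at 1.50, are the largest, and their open circles lie at 1.58 and 1.29.

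How much of a difference XY male 2 carried varied between genes. For Drd1 14.1% of the difference was lost without it and for Arpp21 10.3%, and for the other 10 genes of smallest p the loss lay between -3.5% and 9.6%. Among members of the lists, the difference without it was 0.68 in place of 0.87 for Rarb, 0.24 in place of 0.36 for Pde10a and 0.08 in place of 0.20 for Pdyn. It was the maximum of the 31 arrays at 18 of the 23 shared striatal genes, where it held that place at 523 (4.47%) of all genes tested. Of 179 genes that differed by at least 0.5 in either direction, 112 were higher, and XY male 2 was the maximum at 36 of these. Their median loss without it was 4.68%, and none of the 112 dropped under 0.25. XY male 2 lay at least 1 log2 unit above the median of the other 30 arrays at 96 genes and at least 1 below it at 46. Of the 96 genes, 41 were also higher by at least 0.5 in the 8 high arrays, and 30 of these stayed at 0.5 or more without it.

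The named genes farthest above the other arrays on XY male 2 were led by Crym and by members of the striatal lists. Crym, a thyroid hormone-binding protein of the striatum, was at 11.64 on XY male 2 against a median of 7.70 in the other 30 arrays, 3.94 higher. It ran from 7.91 through 9.46 to 11.64 in the high and from 7.16 through 7.53 to 8.31 in the low arrays and differed by 1.93 (adjusted p = 0.300), or by 1.70 without XY male 2. Drd1 lay 3.28 above the median of the other 30, Arpp21 3.13, Rarb 2.40, Scn4b 2.31 and Kcnj4, an inward-rectifier potassium channel of forebrain neurons, 2.19. B3galt6, Atp6v1d, Ido1 and Slco1c1 completed the 10, at 2.82, 2.39, 2.22 and 2.07. Without XY male 2 the difference between high and low arrays was 0.75 for Kcnj4, 1.29 for Atp6v1d, a proton pump subunit, and 0.39 for Ido1, a tryptophan-degrading enzyme. It was 0.12 for B3galt6, a glycosyltransferase, and 0.55 for Slco1c1, a thyroid hormone transporter, both of which varied widely within every set of arrays. Atp6v1d also ranged widely, from 10.48 to 13.09 in the high, 9.92 to 13.00 in the intermediate and 10.05 to 11.89 in the low arrays.

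Some genes were lowest on XY male 2. Nefh, the heavy neurofilament subunit, was at 4.79 on XY male 2 and at no less than 7.95 on the other 30 arrays. It differed by -0.35 between high and low arrays and by 0.12 without XY male 2. Nudcd3, a cochaperone, was likewise at 4.66 with the other 30 at or above 7.01, and differed by -0.34 and by -0.02 without it. Neither gene was detected on XY male 2, so its distance from the other arrays has no exact size. Csrp1, Ttc27 and Bricd5 were not detected on XY male 2 either, and other arrays reached levels as low.

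**Figure D4:**
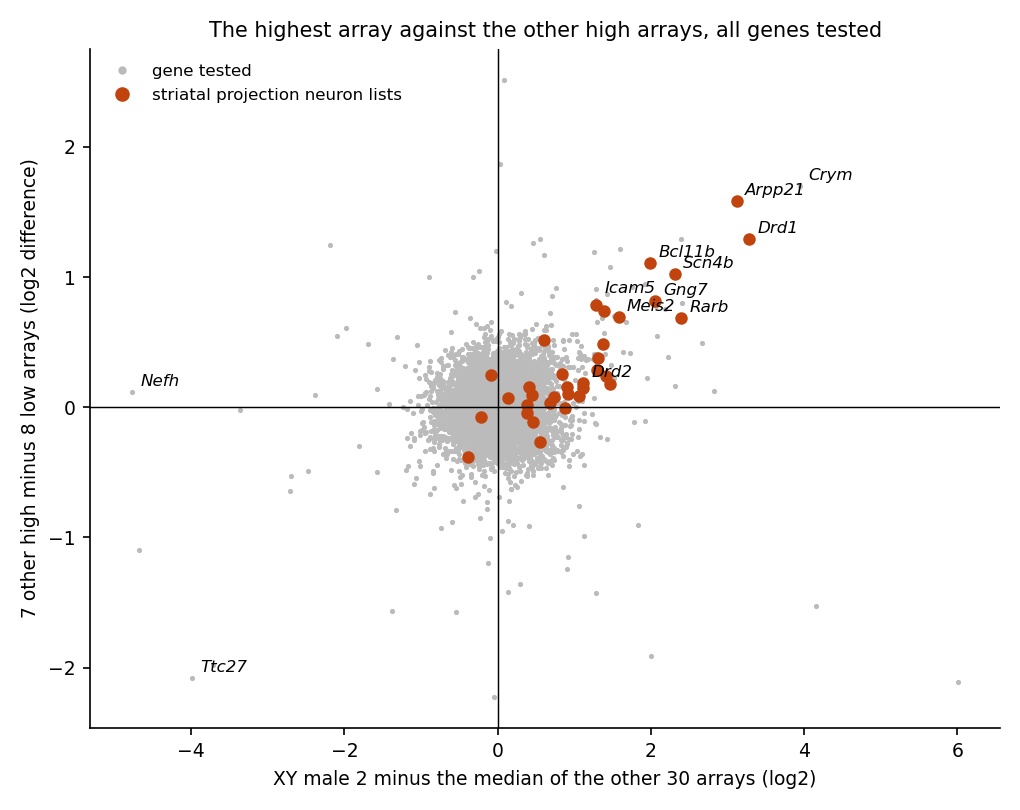
For each gene tested, the log2 distance of XY male 2 from the median of the other 30 arrays (horizontal axis) and the log2 difference of the 7 other high arrays from the 8 low arrays (vertical axis). Members of the striatal projection neuron lists are orange; Crym, Arpp21, Drd1, Scn4b and Bcl11b lie high on both axes, while Nefh, not detected on XY male 2, lies far to the left.

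At Drd1, Arpp21 and Gng7, the 15 arrays in between lay close to the low arrays. Drd1 averaged 8.89 ± 0.81 (SD, n = 8) in the high, 7.35 ± 0.33 (n = 15) in the intermediate and 7.38 ± 0.35 (n = 8) in the low arrays. Arpp21 averaged 12.57 ± 0.91, 11.03 ± 0.34 and 10.81 ± 0.31, and Gng7 11.53 ± 0.62, 10.70 ± 0.14 and 10.57 ± 0.10. The mean of the shared striatal list ran from -0.20 to 0.06 on the intermediate arrays, against -0.27 to -0.06 on the low arrays. On these 4 measures the intermediate arrays lay nearer to the low than to the high arrays, but other genes differed in this. Their mean was nearer to the high arrays at Tmem59l, with 10.37 in the high, 10.40 in the intermediate and 10.80 in the low arrays, and at Arhgap32, with 9.95, 9.97 and 9.45. The same held for Fcho1, with 10.69, 10.58 and 10.28, and for Foxp1 of the shared striatal list, with 7.99, 7.99 and 7.84.

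The dopamine cascade list holds receptors, G proteins, kinases and phosphatases, some of them also members of the projection neuron lists. Of 35 listed, 26 were measured and 18 differed by more than 0, with a median of 0.04, and of 0.12 without XX male 6. None passed the threshold, and 6 were higher at an unadjusted p under 0.05, set beside 4.12% of all genes. Those 6 were Drd1, Gng7, Rgs9, Pde1b, Gnb5, the partner subunit of Rgs9, at 0.20, and Ppp3ca, the calcineurin catalytic subunit, which removes a phosphate from DARPP-32, at 0.22. The subunits of protein kinase A, which phosphorylates DARPP-32, differed by -0.07 for Prkaca, -0.03 for Prkacb, 0.02 for Prkar1a and -0.09 for Prkar1b. The catalytic subunits of protein phosphatase 1, which DARPP-32 inhibits, differed by -0.0018 for Ppp1ca, 0.04 for Ppp1cb and 0.03 for Ppp1cc. Genes of dopamine synthesis and transport had a median of -0.16, with 1 of 6 above 0.

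Genes of striatal interneurons were mixed. Of 10 measured members of 12, 7 differed by more than 0, with a median of 0.16. The genes of cholinergic neurons had the largest values, with 1.29 for Chat, the enzyme that makes acetylcholine, 1.12 for Slc18a3, its vesicular transporter, and 0.75 for Slc5a7, the choline transporter (adjusted p = 0.552 to 0.787). Pvalb, of fast-spiking interneurons, differed by 0.28, Sst by 0.04, Npy by 0.02 and Nos1, which makes nitric oxide, by -0.18. Cholinergic neurons are also found in the basal forebrain outside the striatum. The list's mean was 0.53 on XY male 2 and up to 0.52 on another high array, so here XY male 2 did not stand apart.

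**Figure D5:**
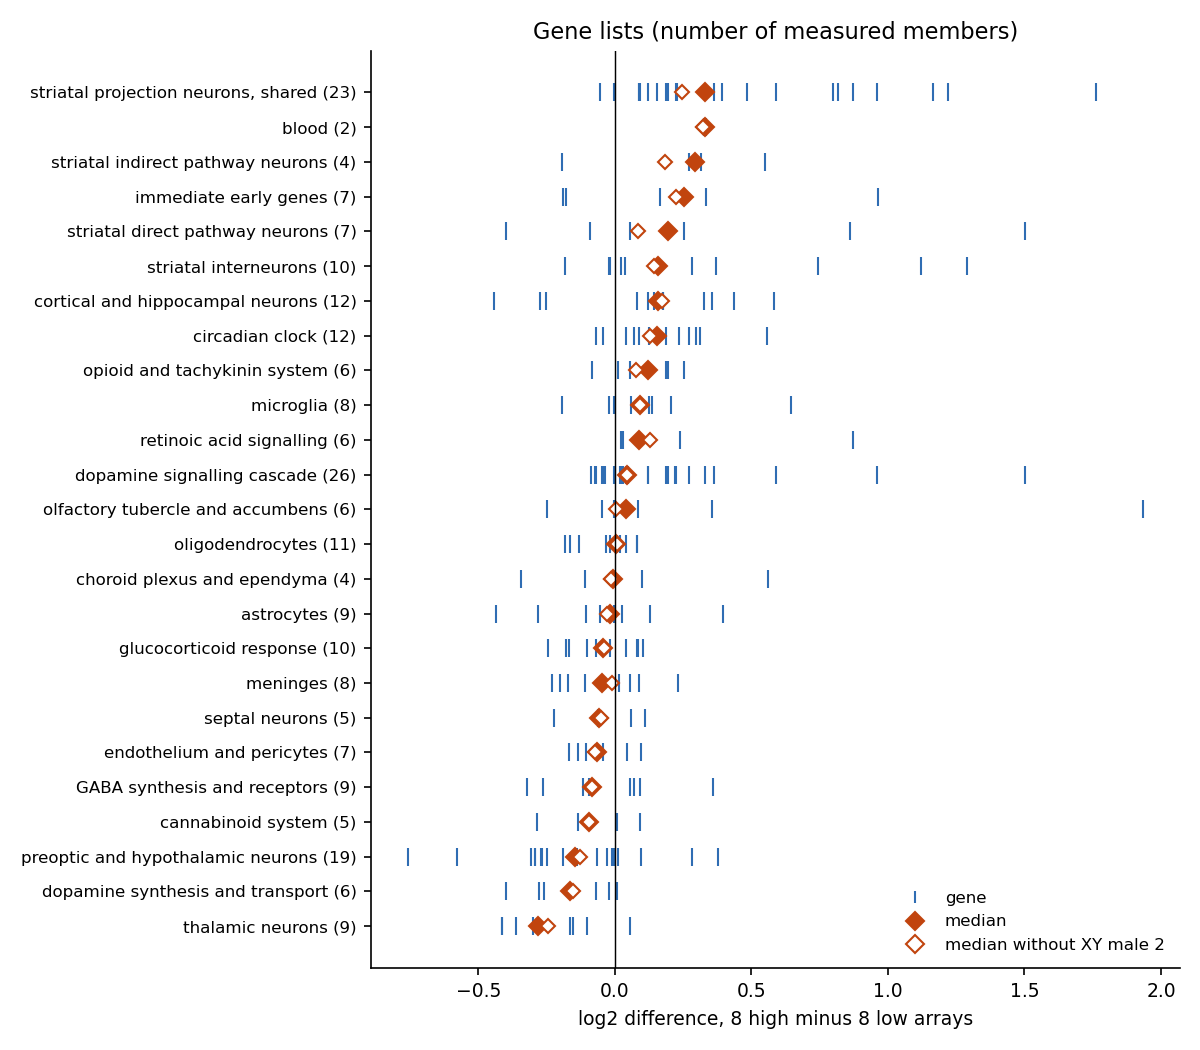
Log2 difference, 8 high minus 8 low arrays (horizontal axis), of each measured gene (ticks) in 25 lists, with the number measured in parentheses, the median of each list (filled diamonds) and the median without XY male 2 (open diamonds). The shared striatal list has the highest median, 0.33, and thalamic neurons the lowest, -0.28.

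Markers of other tissues that a piece could hold were compared in the same way, and none of their members passed the threshold. Thalamic genes had a median of -0.28, with 1 of 9 above 0. Their median was -0.45 within batch 1 and 0.11 within batch 2, and their list mean overlapped fully, from -0.74 to 0.43 on the high and from -0.97 to 0.67 on the low arrays. Preoptic and hypothalamic genes had a median of -0.15, with 4 of 19 above 0, among them the estrogen receptor Esr1 at 0.38. Pomc, the precursor of melanocortins, was at -0.76 and Hcrt, of hypocretin, at -0.58 (adjusted p = 0.899 and 0.957). The median of this list was 0.01 when the arrays were ranked by the scanner value and 0.04 when ranked within batches. Cortical and hippocampal genes had a median of 0.16, with 9 of 12 above 0, among them Mef2c, a transcription factor, at 0.58 and Nrgn, neurogranin, at 0.44, both also made in the striatum. Of the 12, 3 were higher at an unadjusted p under 0.05 by limma, set beside 4.12% of all genes. The median of this list was -0.02 within batch 1, 0.34 within batch 2 and 0.01 when the arrays were ranked by the scanner value. Septal genes had a median of -0.06, and of -0.28 and -0.27 when the arrays were ranked by the scanner value and within batches. Under these rankings the thalamic median was -0.49 and -0.72, in the same order. The part of these tissues in the striatal differences was not tested.

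Glial, vascular and other non-neuronal markers were compared likewise. The median was -0.02 for 9 astrocyte genes, 0.01 for 11 oligodendrocyte genes, 0.09 for 8 microglial genes, -0.06 for 7 genes of endothelium and pericytes, -0.01 for 4 of choroid plexus and ependyma and -0.05 for 8 of the meninges, where the median of all genes was -0.01. The meningeal median was 0.25 within batch 1, -0.52 within batch 2, 0.69 when the arrays were ranked by the scanner value and 0.67 when ranked within batches. Both blood genes measured were at 0.33, the same as the median of the shared striatal list. Their list mean overlapped widely, however, from -0.42 to 0.85 on the high and from -0.95 to 0.69 on the low arrays. The blood median was 0.51 within batch 1 and 0.07 within batch 2. XX male 6 had the highest meningeal list mean of the high arrays, 1.45, where XY male 2 was at -0.36. The number of probes detected overlapped, at 13013 to 14090 on the high and 12939 to 14167 on the low arrays.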

How the data were processed

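Per the file headers, mean bead intensities (linear) and detection p-values were deposited for 25697 probes on 31 arrays. A second deposited table gives the authors' log2 values for 12980 probes, each column with a median of 8.65. The submitters' processing notes name limma. Its batch handling is not given in the sources used here. Its scale was found by comparison with the scanner values (correlation 0.997), no centring of genes was seen, and batch accounted for 4.16% of its first component and 82.3% of that of the values normalized here. The 62 columns of bead errors and bead numbers were not used. The ranking used the processed log2 values. The rest used the scanner intensities, normalized by limma's neqc (version 3.58.1 under R 4.3.3) with an offset of 16, the background being inferred from detection p-values. A probe was kept if 7 or more arrays detected it at 0.05, which gave 14989, and the probe of highest mean stood for a gene. This left 8972 named genes and 2739 unnamed probes.

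The fit held 16 arrays, with rank group and batch as terms, the moderated two-sided test of limma and Benjamini-Hochberg adjustment at 0.05 over all 11711. Adjusted p-values of genes are from this fit unless another is named. The number of arrays limits the precision. Levels shown are log2 signals after removal of the fitted batch effect. Gene symbols came from the platform annotation and were updated through RefSeq GRCm38.p6, with 5 updated and 1 probe unmatched. The arrays, markers and gene lists were chosen with earlier results of these data known, and no list was tested. Genes named are the 12 of smallest p, those past the threshold without XY male 2, the 10 farthest above and 5 farthest below the other arrays on XY male 2, Drd1, Drd2, the striatal projection neuron lists and 4 X-linked genes. Other genes are named as examples of their list, after their values were seen. The fit was tested on simulated data. Alternatives covered the ranking, the arrays left out, batch, genotype, normalization, filter, probe and source of values.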

Additional observations from a re-analysis of the deposited data

Results flagged for a closer look

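In 13 of 124 sets of 8 arrays examined, 1 array lay far from the other 7, with a gap to its nearest neighbour that exceeded the 95% critical share of the whole range in Dixon's test. Chance alone gives about 1 in 20 such sets, but that share does not hold here, since some of the genes were chosen for their distance from the other arrays on XY male 2. XY male 2 was the distant array in 10 of the 13. The Ppp1r1b values were examined in the same way, and no array was flagged by them.

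Among the high arrays, XY male 2 was the distant highest at Drd1, where the gap took 0.695 of the range (10.76 against 9.01 on the next array), and at Rarb, with 0.670 (9.84 against 8.26). It was so at Ido1 with 0.624 (9.23 against 7.73), at Pde10a with 0.579 (8.54 against 7.66), at Gpr6 with 0.591 (7.48 against 6.46) and at Ttc12 with 0.592 (6.26 against 5.69). It was the distant lowest at Nefh, with 0.600 (4.79 against 7.95), and at Nudcd3, with 0.629 (4.66 against 7.04), neither of which was detected on it. The mean of the shared striatal list had a ratio of 0.565, at 1.10 on XY male 2 against 0.43 on the next array, and that of the indirect pathway list 0.726, at 0.88 against 0.20.

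The 3 others were single genes on other arrays. Cnr1 was distantly low on XX male 6 among the high arrays, with 0.726 (5.59 against 7.19), after removal of the batch effect by its label. Among the low arrays, Atp6v1d was distantly high on XX female 6, with 0.674 (11.89 against 10.65), and Slco1c1 on XY male 6, with 0.547 (8.44 against 7.44).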

How the results depend on the processing

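The count of 0 genes past the threshold changed with the arrays used and with the source of values. It stayed 0 with the 10 highest against the 10 lowest arrays, ranking by the scanner value or within batches, a genotype term, no batch term, XX male 6 counted in batch 2, the submitters' values with no batch term, no background correction, cyclic loess, no filter or a stricter filter on dim probes, another probe per gene and a robust fit. Leaving out 1 array at a time gave 0 to 2 genes, with 2 without XY male 2 (Drd1 and Icam5) and 1 without XX female 4 (Icam5). The count was 1 with the next array in place of XY male 2 (Drd1), 5 with the 5 highest against the 5 lowest arrays, 1 in batch 1 alone (H2-T10), 5 in batch 2 alone, 11 with all 31 arrays and 2 with the submitters' values and a batch term (Icam5 and Scx). Of the alternatives chosen after the data were seen, leaving out XY male 2 gave 9 with XX male 6 counted in batch 2 and 7 with the submitters' values, and leaving out both arrays gave 2.

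Drd1 passed the threshold with a difference of 1.29 without XY male 2, 1.24 with the next array in its place, 1.53 with all 31 arrays, and, without XY male 2, 1.34 with XX male 6 counted in batch 2, 1.25 without that array too and 1.23 in the submitters' values. In the permutation test, at 1.50, the adjusted p of Drd1 was 0.000466, but over 3 tests and not over all 11711 genes. That test permuted batch-adjusted values across both batches, so its p-values are approximate. Leaving out single arrays gave 1.29 to 1.58. Among lists, the shared striatal median of 0.33 was 0.25 without XY male 2, 0.23 with the next array in its place, 0.31 without XX male 6 and 0.41 with no batch term. The direct pathway median of 0.20 was 0.44 when ranked by the scanner value, 0.52 when ranked within batches and 0.35 with a genotype term, and the interneuron median of 0.16 was 0.35 and 0.38 under the first 2 of these. The indirect pathway median of 0.29 was 0.10 without XY male 2 and XX male 6. Ranked by the scanner value, the median of the dopamine cascade was -0.02, of dopamine synthesis -0.0049 (from -0.16), of retinoic acid signalling 0.31 (from 0.09), of the clock list 0.04 and of endothelium and pericytes 0.08 (from -0.07). Ranked within batches, dopamine synthesis was at 0.0044. The GABA list was at 0.05 with no batch term and 0.07 without XX male 6, and at 0.05 without that array and XY male 2, where the cascade was at 0.10. Endothelium and pericytes were at 0.09 in the submitters' values. Ranking by the scanner value shared 7 of 8 high and 5 of 8 low arrays and put 5 instead of 6 high arrays in batch 1. For 3 single values the sign turned: -0.0067 for the second probe of Arpp21, and in batch 2 alone, which lacks XY male 2, 0.89 for Nefh and 0.64 for Nudcd3. A further 67 of 2200 values of single genes, over 15 genes, changed sign with both 95% intervals holding 0. Apart from the arrays left out, the cause of these changes was not tested.

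The high and low arrays share 5 replicate numbers, which count samples within a genotype group and which the labels tie to no shared animal, litter or day. Deviations of the high and low arrays of one number correlated at 0.02 to 0.10 over genes, and 1 of 5 high arrays correlated best with the low arrays of its own number, so the numbers were not taken as pairs. A fit with the replicate block in place of batch, added after the data were seen, called 9 genes, all higher, among them Drd1 at 1.81 (adjusted p = 0.049995), Arpp21, Crym and Gng7.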

Other observations

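Genes of the circadian clock and of neuronal activity were also examined, and none passed the threshold. Of 12 clock genes measured, 10 differed by more than 0, with a median of 0.15, and 3 were higher at an unadjusted p under 0.05, set beside 4.12% of all genes: Nr1d1, a nuclear receptor that represses the clock, at 0.56, Dbp, a clock output factor, at 0.30, and the period gene Per2 at 0.23 (adjusted p = 0.574 to 0.635). Without XY male 2 the differences were 0.56, 0.29 and 0.23. The clock median was 0.04 when the arrays were ranked by the scanner value. Of 7 immediate early genes, 5 differed by more than 0, with Egr4 at 0.96, Fosb at 0.33, Arc at 0.25, Junb at 0.25 and Egr1 at 0.17, while Fos was at -0.18 and Dusp1 at -0.19. These 7 had a median of -0.10 within batch 1 and of 0.54 within batch 2.

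Gad1, an enzyme of GABA synthesis, differed by 0.36 and the vesicular GABA transporter Slc32a1 by 0.05, in a list of 9 with a median of -0.09, or 0.07 without XX male 6. P2ry12, a receptor of resting microglia, differed by 0.64 (adjusted p = 0.574), while Cx3cr1 was at -0.0017 and Tyrobp at -0.19. Of 6 genes of retinoic acid signalling, Rarb was at 0.87 and the others between 0.02 and 0.24. The glucocorticoid response list had a median of -0.05 over 10 genes, the cannabinoid list -0.09 over 5 and the opioid and tachykinin list 0.12 over 6. The olfactory tubercle and accumbens list had a median of 0.04 over 6, with Crym at 1.93 and the rest between -0.25 and 0.36. The genotype check genes other than Xist differed by 0.18 for Kdm6a, 0.19 for Eif2s3x and 0.50 for Ddx3x (adjusted p = 0.675 to 0.885).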
